A study of Mus musculus with 9 samples.

Results

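The 3 wild-type control germ cell samples, taken as all samples labelled control, are 3 of the 9 RNA-seq samples in a mouse study. Their deposited gene levels are described here on their own: which genes were most abundant, which classes of gene and stages of germ cell they belonged to, and how far the 3 libraries differed from each other. The study deleted Clpp or Clpx in germ cells with Stra8-Cre, a recombinase that the Stra8 promoter drives in male germ cells. It set 3 libraries of each knockout beside the controls. The controls are labelled WT, male germ cells, PD 35, and are titled as spermatocytes. The labels used here do not say how the cells were purified, whether animals were pooled, or whether the controls carried Cre or floxed alleles. They also do not say that the replicates came from separate mice, so the spread given below is that between 3 libraries, which may be technical in part.

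Spermatogenesis runs from mitotic spermatogonia through spermatocytes, which pair and recombine their chromosomes in meiotic prophase, to haploid spermatids, which build the acrosome and flagellum and exchange histones for transition proteins and then protamines. The X and Y chromosomes are silenced in pachytene spermatocytes, and many housekeeping genes have a relative, often a retrogene on an autosome, that is used in meiotic and haploid cells. Transcripts for late spermatid proteins are made in round spermatids and stored before translation.

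Levels are FPKM, fragments per kilobase of gene over a denominator for each library. Genes of different length can therefore be set side by side. That denominator was 0.910, 0.897 and 0.951 of the reads assigned to genes in Controls 1, 2 and 3. Reads assigned to genes numbered 15739901 in Control 1, 17021685 in Control 2 and 14334436 in Control 3, and 1 read in a gene of 1 kb was worth 0.0698, 0.0655 and 0.0734 FPKM. A gene was counted as detected at 1 FPKM or more. By that limit 17348, 17330 and 17398 genes were detected, and 15828 genes were detected in all 3 libraries, among them 12111 of 22046 protein-coding genes (54.9%). Of 54532 genes in the table, 17900 were at 0 in all 3. The genes that the study later deleted were both present, Clpp, the protease subunit of the mitochondrial ClpXP complex, at 9.36, 8.46 and 9.36 FPKM, and Clpx, its unfoldase, at 59.3, 55.7 and 54.7 FPKM.

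The most abundant protein-coding genes were those of late spermatids, followed by genes of the mitochondrial genome and of pachytene spermatocytes. Tnp2, which encodes transition protein 2, ranked first among protein-coding genes at 4958, 4995 and 2461 FPKM in Controls 1, 2 and 3. Prm1, protamine 1, stood at 4002, 3476 and 1435 FPKM, and Prm2, protamine 2, at 2913, 2560 and 967 FPKM. For each of these 3 genes Control 3 was the lowest library and lay well below the others, with Controls 1 and 2 nearer to each other. Tnp1, transition protein 1, was at 1744, 1514 and 773 FPKM, and Smcp, a protein of the sperm mitochondrial capsule, at 1430, 1460 and 858 FPKM. Odf1, an outer dense fibre protein of the sperm tail, was at 905, 902 and 511 FPKM. Ldhc, the lactate dehydrogenase of meiotic and haploid germ cells, was far steadier at 1989, 2036 and 1911 FPKM (1979 ± 63.0, SD, n = 3). Ybx2, a germ cell protein that binds and stores mRNA, was at 1120, 1058 and 947 FPKM. The α-tubulin genes, Tuba3a (1046 ± 25.2 FPKM, SD, n = 3) and Tuba3b (975 ± 19.6 FPKM), are near-identical copies of each other, so how reads were divided between them is uncertain. The same holds for Eef1a1 (872 ± 28.7 FPKM), an elongation factor with many processed copies, and for the polyubiquitin gene Ubb (1018 ± 68.3 FPKM).

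**Figure D1:**
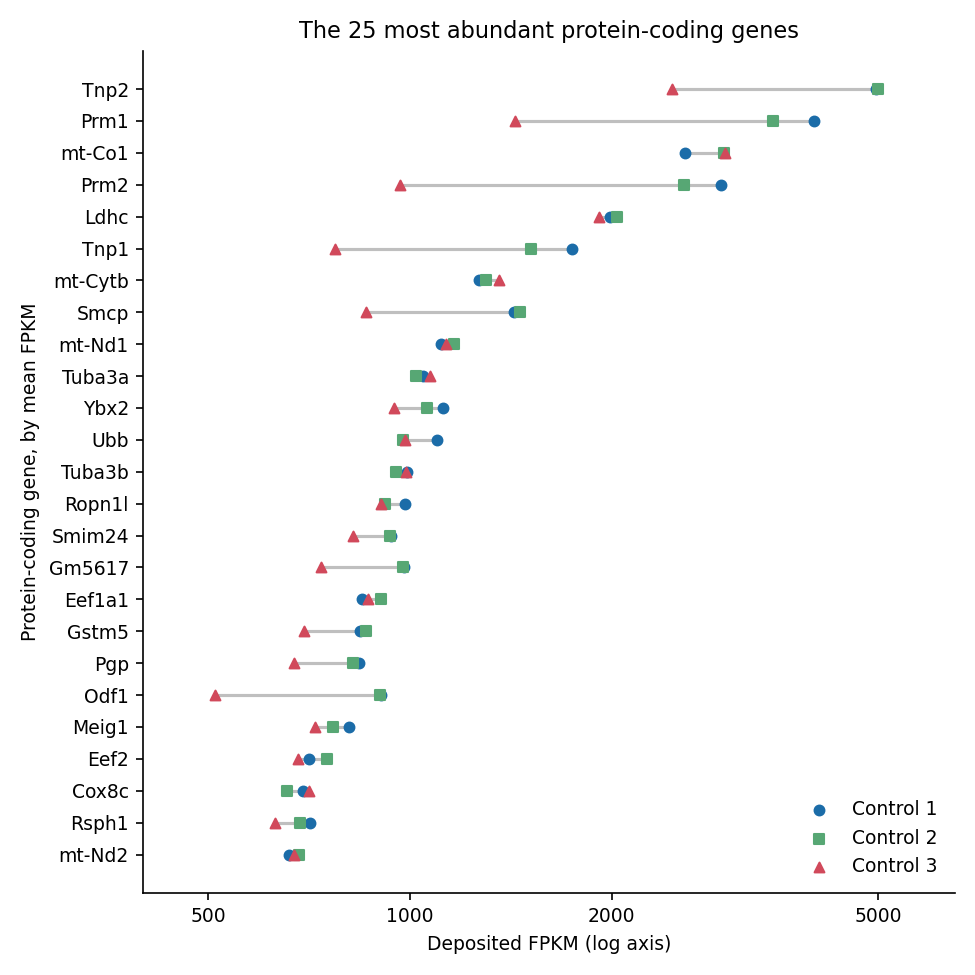
Deposited FPKM (horizontal, log axis) of the 25 protein-coding genes with the highest mean, with 1 point for each control library and a grey line from the lowest to the highest. Control 3 lies well to the left of the other libraries for Tnp2, Prm1, Prm2, Tnp1, Smcp and Odf1, while Ldhc and the mitochondrial genes keep the 3 points together.

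Other genes among the 25 highest served the sperm tail, energy supply and translation. Ropn1l, a ropporin-like protein of the fibrous sheath, stood at 934 ± 42.9 FPKM (SD, n = 3), and Rsph1, a radial spoke protein of motile cilia and flagella, at 674 ± 41.5 FPKM. Meig1, needed for assembly of the spermatid manchette and flagellum, was at 766 ± 43.7 FPKM. Cox8c, a testis form of a cytochrome c oxidase subunit, was at 685 ± 26.1 FPKM, and the elongation factor Eef2 at 713 ± 35.9 FPKM. Gstm5, a glutathione transferase of testis and brain, was at 842, 858 and 695 FPKM, with Control 3 again lowest. The 4 mitochondrially encoded genes in this set were mt-Co1 (2819 ± 216 FPKM), mt-Cytb (1308 ± 44.8), mt-Nd1 (1136 ± 24.9) and mt-Nd2 (671 ± 11.7).

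The summed FPKM was concentrated in few genes, and less so in Control 3. The 100 most abundant genes held 21.02%, 20.1% and 18.2% of the summed FPKM (19.8 ± 1.45%, SD, n = 3), and the 10 most abundant held 7.84%, 6.70% and 5.44%. It took 909, 931 and 1067 genes to reach 50% of the sum. Genes at 1000 FPKM or more numbered 13, 12 and 8. The rankings of protein-coding genes overlapped closely. Of the top 100 protein-coding genes of a library, 90 were shared by all 3 libraries and 97 by Controls 1 and 2. Weighed by reads, where long genes count for more, the top 100 of all genes held 12.9 ± 0.344% (SD, n = 3).

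Tnp2, Prm3, Prm2 and Prm1 are neighbours on the minus strand of chromosome 16. As annotated they span 17904 bases of GRCm38, from the end of Tnp2 (chr16:10787936-10788660) to the outermost start of Prm1 (chr16:10796326-10805839). The RefSeq start sites used below for Prm1 and Prm2 lie inside their annotated genes (Prm2 at chr16:10791380-10796134), so the span depends on the annotation. These 4 genes gave 3.27%, 3.08% and 1.49% of the summed FPKM in Controls 1, 2 and 3. Prm3, a small acidic protein encoded between Tnp2 and Prm2, was the exception in level, at 65.2, 55.7 and 38.1 FPKM. Tnp1 lies apart, on chromosome 1 (chr1:73015074-73015909). The 120 bases before the RefSeq start site of the 4 most abundant of these genes are shown because their transcripts led the ranking and moved together between libraries. They are printed on the coding strand, from RefSeq promoters on GRCm38.p6, and capitals mark any match to the motif TGANNTCA. The windows lie at chr16:10796824-10796943 for Prm1, chr1:73015900-73016019 for Tnp1, chr16:10792106-10792225 for Prm2 and chr16:10788656-10788775 for Tnp2.
Prm1: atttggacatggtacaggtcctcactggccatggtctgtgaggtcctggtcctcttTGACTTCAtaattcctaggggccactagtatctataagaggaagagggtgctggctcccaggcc
Tnp1: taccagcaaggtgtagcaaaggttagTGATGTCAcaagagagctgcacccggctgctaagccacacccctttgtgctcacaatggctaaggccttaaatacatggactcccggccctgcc
Prm2: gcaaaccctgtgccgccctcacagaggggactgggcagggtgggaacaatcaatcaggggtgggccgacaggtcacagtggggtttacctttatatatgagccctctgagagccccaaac
Tnp2: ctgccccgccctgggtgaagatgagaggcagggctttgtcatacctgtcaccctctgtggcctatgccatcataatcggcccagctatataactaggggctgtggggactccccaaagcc

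The motif TGANNTCA was chosen after these sequences and levels had been seen. It reads the same on both strands, and it includes the palindrome TGACGTCA, known as the cAMP response element, which factors of the CREB and CREM family bind. A match began 64 bases before the start of Prm1 and 94 bases before that of Tnp1, and none lay in the windows shown for Prm2 and Tnp2. In windows of 250 bases before to 50 after the start, the motif was found for 4637 of 32851 RefSeq promoters (14.1%) and for 4304 of the 27025 genes that have one (15.9%). Among the elongating spermatid genes described below it was found for 11 of the 19 with a window (57.9%). Those 11 include Prm1 and Tnp1, whose sequences had been seen when the motif was chosen. Among round spermatid genes it was found for 7 of 15. Other lists, each of 5 to 22 genes with a window, ranged from 0 of 10 for Sertoli cells to 3 of 7 for epididymal epithelium, with 2 of 13 for pachytene spermatocytes, 3 of 12 for undifferentiated spermatogonia, 2 of 7 for stromal cells and 2 of 8 for immune cells. The full palindrome was found for 549 of the 27025 genes (2.03%), 2 of the 15 round spermatid genes and 0 of the 19 elongating spermatid genes, so the matches in the last list were all to looser forms. Protein-coding genes at 10 FPKM or more had TGANNTCA in 618 of 4219 cases (14.6%) and the full palindrome in 164 (3.89%). These are counts of letters with no test, and they say nothing on whether a factor bound there. Crem itself was at 31.2, 29.3 and 31.1 FPKM.

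The gene with the highest mean FPKM was not protein-coding, although it led the table in Controls 1 and 3 and not in Control 2, where Tnp2, Prm1 and mt-Co1 were higher. Gm23935, annotated as a miRNA gene of 57 bases, was listed at 6620, 2684 and 3663 FPKM, from 5403, 2337 and 2846 reads. It lies at chr16:11144125-11144181 on the plus strand, inside Zc3h7a, which runs on the minus strand, and overlaps no exon of it. Its sequence, from the annotation's transcripts, is shown because the same bases occur in other genes.
Gm23935: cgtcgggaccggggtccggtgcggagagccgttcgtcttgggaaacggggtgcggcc
It is 73.7% G and C, and Gm24270 and Gm24245 carry the identical 57 bases elsewhere in the genome. A search of annotated transcripts for a shared stretch of 30 bases gave 3 genes, these 2 and Gm24187. Gm24270 was listed at 78.4, 37.9 and 57.9 FPKM, and Gm24245 at 0 in all 3, so the place these reads came from is uncertain. Short genes weigh more in FPKM than in reads: genes under 200 bases held 2.79%, 1.68% and 2.20% of the summed FPKM but 0.0679%, 0.0447% and 0.0544% of the reads. Gm23935 alone gave 1.81%, 0.745% and 1.11% of the FPKM. An annotated rRNA gene, CT010467.1, was highest in the same library, at 177, 73.5 and 76.2 FPKM. CT010467.1 was not among the 3 genes found to share 30 bases with Gm23935. Whether ribosomal fragments add to the Gm23935 value was not tested.

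The libraries were made with an mRNA-Seq kit, so the shares below are those of the libraries and not of all cellular RNA. Protein-coding genes held most of the summed FPKM. They gave 87.6%, 88.9% and 87.6% of the summed FPKM (88.0 ± 0.736%, SD, n = 3) and 96.1 ± 0.0962% of the reads, and they were 72.9% of the genes with a mean of 1 FPKM or more. Long intergenic RNAs followed at 3.15 ± 0.0746% of the FPKM. Processed pseudogenes gave 2.66%, 2.65% and 3.05%, and antisense genes gave 1.65 ± 0.0319%. The miRNA class gave 2.24%, 1.15% and 1.57%, which follows Gm23935.

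Long noncoding genes, 8 biotypes joined, numbered 9680, of which 2610 had a mean of 1 FPKM or more, 412 of 10 or more and 9 of 100 or more. Together they held 5.59 ± 0.115% of the summed FPKM (SD, n = 3). Rbakdn was the highest at 600, 548 and 537 FPKM, a level near that of Hspa2. 1700008K24Rik followed at 312, 310 and 346 FPKM. 4930571K23Rik stood at 221, 218 and 127 FPKM, low in Control 3 as the protamine genes were, whereas 1700018B24Rik was highest there, at 161, 141 and 211 FPKM. Gm11837 (145 ± 4.02 FPKM), C2cd6b (142 ± 3.62) and 1700029M20Rik (108 ± 2.11) differed little between libraries. Gm45027, at 129 ± 23.7 FPKM, is 78 bases long and rests on 174, 131 and 130 reads. Of 13037 pseudogenes, 1331 had a mean of 1 FPKM or more. The most abundant was Dynlt1-ps1, a copy of a dynein light chain gene, at 460, 512 and 573 FPKM. Reads of a processed pseudogene and of its parent cannot always be told apart.

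The level of germ cell genes was then read stage by stage from 7 lists of markers, and the median over a list's members of log2(FPKM + 1) is called its level. These lists, and those of other cell types used below, were chosen with earlier results of these data known. Levels were lowest for undifferentiated spermatogonia (1.18 ± 0.14, SD, n = 3) and highest for elongating spermatids (8.37 ± 0.22). Between them lay differentiating spermatogonia (2.89 ± 0.06), early meiotic prophase (4.27 ± 0.11), the meiotic and mitotic divisions (4.64 ± 0.02), pachytene spermatocytes (6.12 ± 0.07) and round spermatids (6.23 ± 0.06). Pachytene levels (6.04, 6.17 and 6.15 in Controls 1, 2 and 3) and round spermatid levels (6.28, 6.17 and 6.23) differed by little more than their spread. The spermatid lists thus stood as high as or higher than the spermatocyte lists in libraries titled as spermatocytes. That order depends on which genes each list holds. Some pachytene markers, such as Ldhc, are also genes of haploid cells. In bulk RNA, more cells of a stage and more RNA per cell cannot be told apart. The libraries are called control germ cells in what follows.

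**Figure D2:**
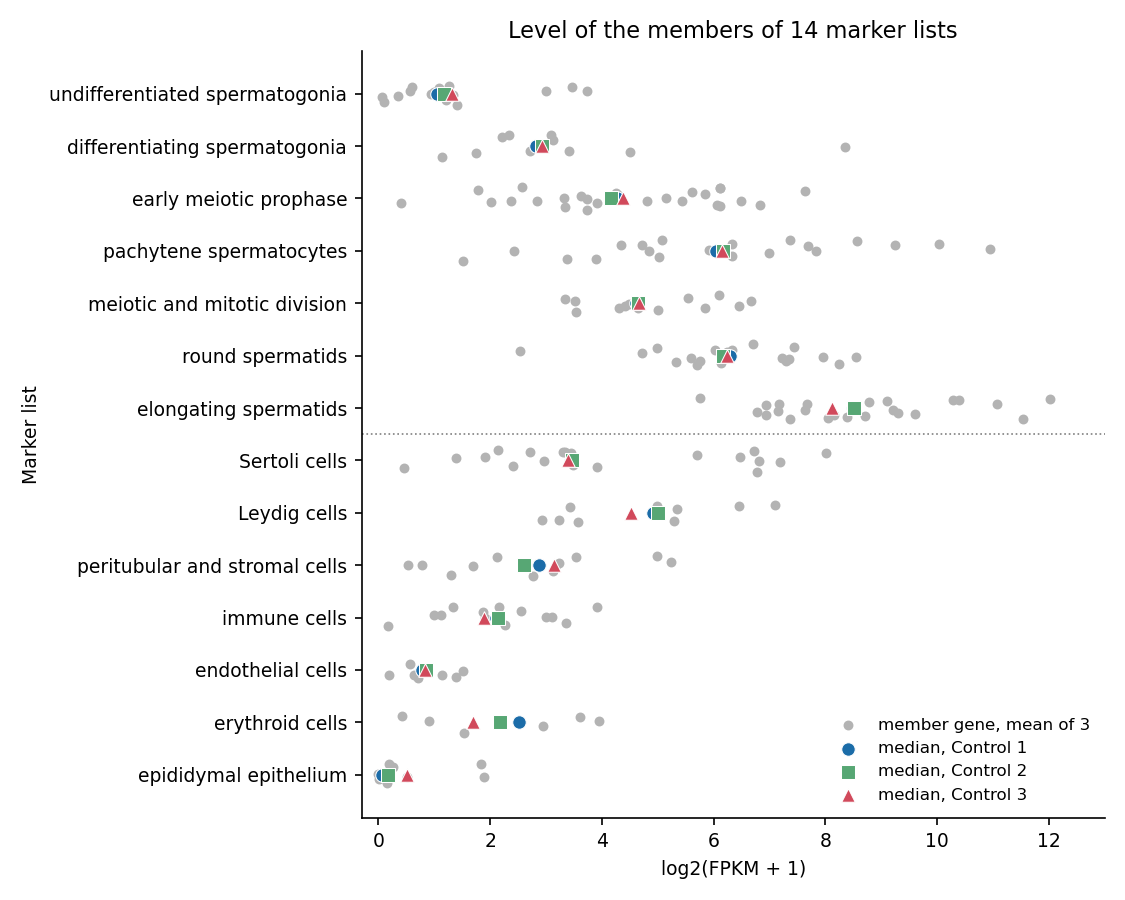
Level of marker genes, log2(FPKM + 1), for 7 germ cell lists (above the dotted line) and 7 lists of other cell types (below it). Grey points are member genes as the mean of 3 libraries, scattered vertically for legibility, and coloured symbols are the list medians of each control. Elongating spermatid genes sit highest, and Leydig and elongating spermatid medians are lowest in Control 3.

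Markers of undifferentiated spermatogonia were near or under the detection limit. Of 16 members, 9 had a mean of 1 FPKM or more and 5 were under 1 FPKM in all 3 libraries. Sdc4, a surface proteoglycan, was the highest at 10.9, 12.6 and 13.4 FPKM, and Id4, a stem cell regulator, stood at 10.3, 9.52 and 10.3 FPKM. Etv5, a transcription factor of self-renewal, stood at 7.23, 7.53 and 6.08 FPKM. Zbtb16, which encodes PLZF, was at 1.57, 1.40 and 1.93 FPKM. The 5 under the limit were Upp1, Ret, Neurog3, Eomes and Nanos2. Ret, the GDNF receptor kinase, was at 0.372, 0.319 and 0.738 FPKM, and Nanos2 was at 0, 0.126 and 0 FPKM. The Nanos2 values rest on 0, 3 and 0 reads, and a count of 0 is also what a gene with an expected 3 reads could give.

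All 10 markers of differentiating spermatogonia were detected, 8 of them under 10 FPKM. Stra8, which licenses meiotic entry and whose promoter drives the study's Cre, stood at 9.41, 10.02 and 9.28 FPKM. The receptor gene Kit was at 3.50, 4.56 and 4.05 FPKM. Dmrtb1, a DM-domain factor of the passage from mitosis to meiosis, stood apart from the list at 331, 324 and 327 FPKM (327 ± 3.47, SD, n = 3). Prss50 was next, at 22.9, 20.8 and 21.4 FPKM.

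Genes of chromosome pairing and recombination were detected in 25 of 26 cases. The highest encode structure: Syce1, a central element protein of the synaptonemal complex, stood at 201, 202 and 191 FPKM, and Stag3, a meiotic cohesin subunit, at 108, 113 and 115 FPKM. Sycp2, of the lateral element, was at 85.1, 90.5 and 91.1 FPKM, and Syce3, of the central element, at 77.0, 61.7 and 67.0 FPKM. Genes of the recombination machinery were lower. Spo11, which cuts DNA to start recombination, was at 17.6, 15.1 and 21.4 FPKM. The strand exchange gene Dmc1 was at 9.35, 9.38 and 8.68 FPKM, and Prdm9, which places the cuts, was at 1.93, 2.81 and 2.61 FPKM. Mei4 was under 1 FPKM in all 3 libraries, at 0.186, 0.222 and 0.534 FPKM. Syce2 was the member of this list furthest from the other libraries in Control 3, at 48.9, 50.2 and 27.8 FPKM.

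All 20 pachytene markers were detected, 17 of them at 10 FPKM or more and 8 at 100 or more. After Ldhc and Ybx2 came Hspa2, the heat shock protein of meiotic prophase, at 605, 594 and 619 FPKM. Pgk2, the autosomal phosphoglycerate kinase, was at 417, 413 and 307 FPKM. Clgn, a chaperone for sperm membrane proteins, stood at 219, 220 and 245 FPKM, and Piwil1, the Argonaute protein of pachytene piRNAs, at 162, 158 and 173 FPKM. Mybl1, the transcription factor that drives pachytene piRNA precursors, was at 18.8, 20.3 and 19.1 FPKM. The testis histone gene H1f6, listed under its older symbol Hist1h1t, was at 1.84, 1.22 and 2.49 FPKM.

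All 14 division genes were detected, and they differed little among the libraries. Ccnb2, a cyclin, stood at 102, 92.0 and 109 FPKM. Cdc20, the activator of the anaphase-promoting complex, was at 83.2, 91.9 and 84.8 FPKM, and the kinase gene Aurka at 67.7, 70.5 and 64.7 FPKM. Kif2c, a kinesin that depolymerizes microtubules, was at 62.4, 66.6 and 41.1 FPKM, the lowest in Control 3 by the widest margin in the list.

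All 20 round spermatid markers were detected. Fabp9, a fatty acid binding protein of the perforatorium, stood at 419, 371 and 326 FPKM. H1fnt, a linker histone of spermatids, was at 353, 369 and 188 FPKM, and the kinase gene Tssk6 at 206, 222 and 89.5 FPKM. These last 2 were low in Control 3, as was Tssk2 at 272, 274 and 192 FPKM. Acrosome and sperm channel genes were not: Acr, the protease acrosin, was at 144, 137 and 164 FPKM, and Catsper2, a subunit of the sperm calcium channel, at 96.1, 99.995 and 112 FPKM.

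All 23 elongating spermatid markers were detected, and 22 had a mean of 100 FPKM or more. They held 5.84%, 5.66% and 3.16% of the summed FPKM in Controls 1, 2 and 3. Below the nuclear proteins already given, Dbil5, a spermatid relative of the diazepam-binding inhibitor, was at 768, 726 and 404 FPKM, and Gsg1 at 692, 708 and 367 FPKM. Gapdhs, the glyceraldehyde phosphate dehydrogenase of the sperm tail, was at 628, 640 and 379 FPKM, and Akap4, the main fibrous sheath protein, at 486, 544 and 286 FPKM. Spem1, which acts in removal of spermatid cytoplasm, was at 326, 323 and 145 FPKM. In each of these Controls 1 and 2 lay close together and Control 3 well below them. Tekt2, a tektin of the flagellar axoneme, was the exception in the list, at 121, 116 and 127 FPKM. Odf2, a scaffold protein of the outer dense fibres, moved less, at 360, 362 and 276 FPKM.

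The libraries also held RNA of somatic cells of the testis. Of 19 Sertoli cell markers, 18 were detected, with a level of 3.43 ± 0.05 (median log2(FPKM + 1), SD, n = 3). Clu, the secreted chaperone clusterin, was at 261, 253 and 257 FPKM, Cst9, a cystatin, at 154, 147 and 132 FPKM, and Aard at 111, 106 and 115 FPKM. Amhr2, the receptor of anti-Müllerian hormone, was at 115, 116 and 93.9 FPKM. The defining transcription factors were low but detected: Wt1 at 9.56, 9.20 and 8.60 FPKM, Gata4 at 8.66, 10.1 and 7.97 FPKM and Sox9 at 5.79, 5.24 and 5.62 FPKM. Fshr, the receptor of follicle-stimulating hormone, was at 2.75, 2.42 and 3.11 FPKM, and Trf, transferrin, was under 1 FPKM in all 3. The Sertoli list as a whole summed to 965, 932 and 927 FPKM, so these markers were alike in the 3 libraries.

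Leydig cell genes, those of androgen synthesis, were not alike. All 9 were detected, and their sum was 415, 443 and 244 FPKM. Cyp17a1, the enzyme that makes androgen precursors, was at 154, 186 and 66.1 FPKM. Star, which carries cholesterol into mitochondria, was at 12.2, 12.7 and 4.42 FPKM, Cyp11a1, which cleaves its side chain, at 44.3, 48.6 and 21.9 FPKM, and the receptor gene Lhcgr at 7.58, 9.85 and 2.27 FPKM. Control 3 was the lowest library for 8 of the 9, the exception being Hsd3b6 at 29.3, 31.1 and 32.3 FPKM. For comparison, 39.7% of protein-coding genes at 1 FPKM or more were lowest in Control 3.

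Peritubular and stromal genes went the other way. Control 3 was the highest library for 12 of 12 members, against 36.1% of protein-coding genes at 1 FPKM or more, and their sum was 113, 96.3 and 140 FPKM. Col1a1, a collagen, was at 6.95, 5.15 and 13.03 FPKM, and Col3a1 at 8.15, 7.77 and 15.8 FPKM. The smooth muscle genes Myl9 (39.2, 31.7 and 39.8 FPKM) and Acta2 (30.9, 27.0 and 34.1 FPKM) were the highest of the list, and their libraries lay closer together. Of these members, 10 had a mean of 1 FPKM or more.

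Other cell types left fainter traces. Immune markers had a level of 2.04 ± 0.14. Lyz2, a lysozyme of macrophages, stood at 13.2, 14.97 and 13.8 FPKM, while H2-Ab1, a class II histocompatibility chain, was at 6.95, 6.199 and 1.39 FPKM. Ptprc, the pan-leukocyte marker CD45, was under 1 FPKM in all 3, at 0.0801, 0.129 and 0.180 FPKM. Endothelial markers had a level of 0.82 ± 0.04, with 5 of 8 under 1 FPKM in all 3 libraries, Pecam1 among them. Hba-a1, a globin whose near-identical copy Hba-a2 may share its reads, was at 15.1, 6.37 and 12.1 FPKM. Epididymal markers were near 0, with a level of 0.25 ± 0.23, and Lcn5 was at 0 in all 3. Crisp1, a protein the epididymis secretes onto sperm, was at 0.0986, 0.139 and 7.46 FPKM, that is 2, 3 and 144 reads, and Rnase10 at 1.80, 2.16 and 4.19 FPKM. The part that unequal shares of somatic cells play in any difference between these libraries was not tested.

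Genes of the X chromosome were present at lower levels than autosomal genes. The median FPKM of X-linked protein-coding genes with a mean of 1 FPKM or more was 3.84, 4.01 and 3.88 in Controls 1, 2 and 3, and that of autosomal genes was 7.93, 7.95 and 7.90. The ratio was 0.493 ± 0.010 (SD, n = 3), and 0 of 19 autosomes had a median as low as that of the X. The lowest autosomal medians were those of chromosome 13 (5.99 ± 0.167) and chromosome 14 (6.14 ± 0.124), and the highest was that of chromosome 11 (9.74 ± 0.118). The X gave 1.60%, 1.68% and 1.55% of the summed FPKM, counted over its 2614 genes of all biotypes. Of its 948 protein-coding genes, 491 had a mean of 1 FPKM or more. 2 X-linked protein-coding genes reached a mean of 100 FPKM, both of spermatids: Akap4 and Tsga8, the latter at 171, 160 and 156 FPKM. On the Y, 9 of 183 protein-coding genes were detected. The highest of those named, chosen after their values were seen, were Eif2s3y, a translation initiation factor subunit, at 9.21, 9.94 and 10.9 FPKM and Uba1y, a ubiquitin-activating enzyme, at 6.53, 6.78 and 7.24 FPKM.

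**Figure D3:**
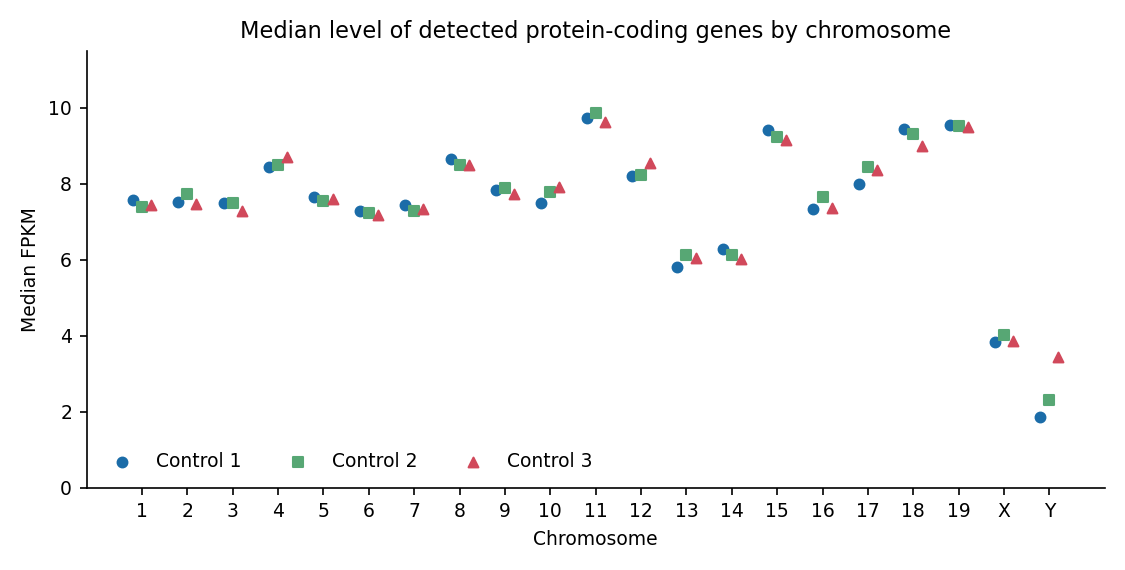
Median FPKM of protein-coding genes with a mean of 1 FPKM or more (vertical, from 0) for each chromosome, with 1 symbol per control library. The X sits near 3.9 in all 3 libraries and every autosome above it, while the Y median rests on 9 genes.

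Chromosome 16 showed how few genes can set a share. It gave 7.27%, 6.05% and 4.86% of the summed FPKM, but 2.19%, 2.22% and 2.27% without Tnp2, Prm3, Prm2, Prm1 and Gm23935. The mitochondrial genome gave 2.04%, 2.24% and 2.48% of the FPKM, and 0.833%, 0.900% and 0.956% of the reads. It was highest in Control 3, the library with the smallest protamine share.

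Germ cell relatives of widely expressed genes were the higher member of the pair in 23 of 25 pairs, in all 3 libraries. The pairs were chosen with earlier results of these data known, so these counts do not estimate a share over all such pairs. The median ratio of germ cell to widely expressed gene was 7.56, and it was 10 or more in 10 pairs. In the 10 pairs whose widely expressed gene is X-linked and whose germ cell gene is autosomal, the latter was higher in every library, with a median ratio of 13.2.

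Genes of energy metabolism gave the widest ratios. Cox7b2, a cytochrome c oxidase subunit, exceeded X-linked Cox7b by 58.7 ± 4.65 fold (SD, n = 3), with Cox7b2 at 147, 164 and 161 FPKM and Cox7b at 2.30, 3.02 and 2.78 FPKM. Pdha2, the pyruvate dehydrogenase subunit of germ cells, exceeded Pdha1 by 57.5 ± 6.49 fold, and Pgk2 exceeded Pgk1 by 41.1 ± 4.09 fold. Cox8c exceeded Cox8a by 31.6 ± 11.6 fold, a ratio that ranged from 22.9 to 44.8 because Cox8a was at 30.2, 24.3 and 15.7 FPKM. Ldhc exceeded Ldha by 6.18 ± 0.233 fold, although Ldha was itself abundant at 320, 318 and 322 FPKM. The ratio of Gapdhs to Gapdh was the largest, 808, 825 and 374, with Gapdh at 0.777, 0.776 and 1.01 FPKM. Gapdh has many near-identical pseudogenes, so its low value is uncertain.

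Ribosome and RNA-related pairs followed the same order, except for the Pabpc2 pair given below. Rpl10l exceeded Rpl10 by 11.1 ± 0.498 fold and Rpl39l exceeded Rpl39 by 15.2 ± 3.63 fold. Annotated pseudogenes held 3.14%, 3.14% and 3.19% of the reads of Rpl10 and its copies, and 1.5%, 2.41% and 0% for Rpl39. Rbmxl2 exceeded Rbmx, both RNA-binding proteins, by 23.3 ± 1.38 fold. The RNA pairs Utp14b over Utp14a (3.08 ± 0.324) and Cstf2t over Cstf2 (1.97 ± 0.365) had smaller ratios. Psma8, the α subunit of the testis proteasome, exceeded Psma7 by 7.56 ± 0.647 fold. Tbpl1 exceeded the general transcription factor Tbp by 7.65 ± 0.393 fold. Ratios were small for Slc25a31, the germ cell ADP/ATP carrier, over Slc25a5 (1.56 ± 0.021) and for Zfa-ps over Zfx (1.505 ± 0.068), both above 1 in each library. The 2 pairs in the other direction were Pabpc2 to Pabpc1 (0.627 ± 0.0116), poly(A)-binding proteins, and Eno4 to Eno1 (0.613 ± 0.113), enolases.

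**Figure D4:**
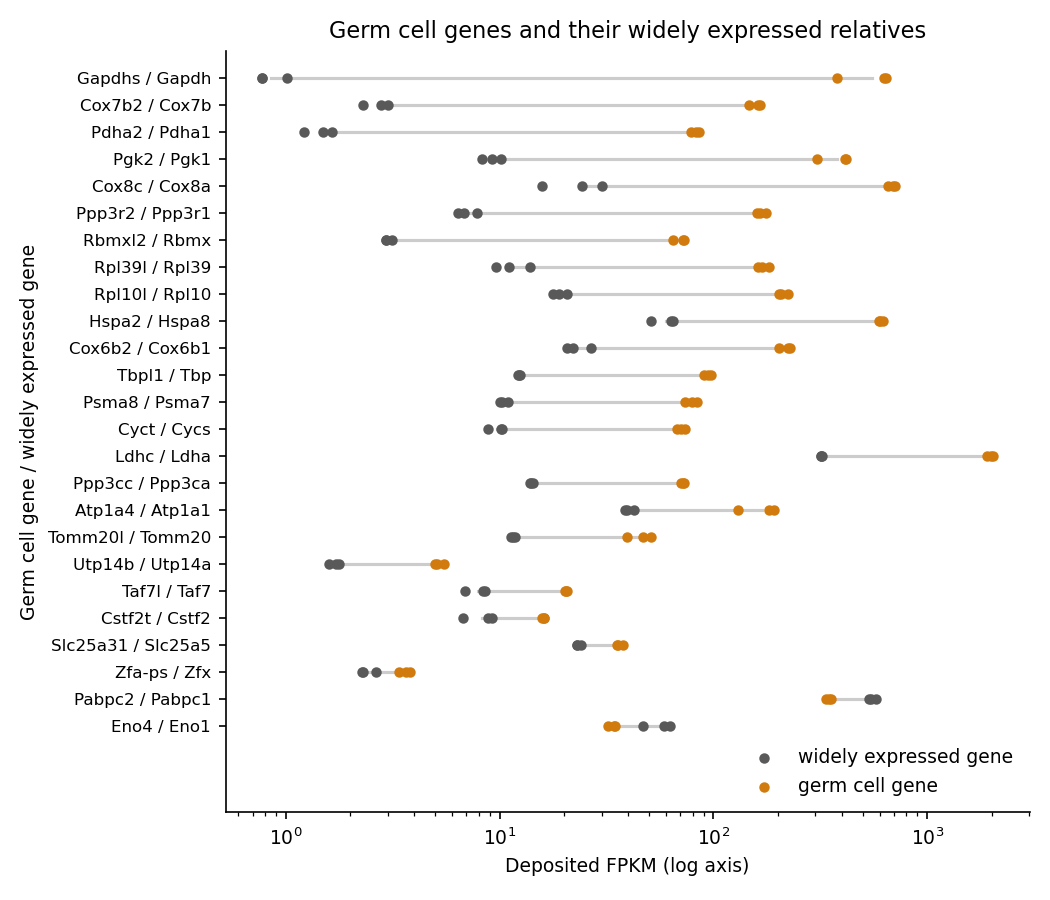
Deposited FPKM (horizontal, log axis) of 25 germ cell genes (orange) and their widely expressed relatives (dark grey), 3 points each for the 3 controls, ordered by mean ratio, with a light grey line between the means. The germ cell gene lies to the right in 23 pairs and to the left for Pabpc2 and Eno4. The pairs were chosen with earlier results of these data known.

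The 3 libraries were close to each other, and Control 3 stood furthest from the rest. Over the 17328 genes with a mean of 1 FPKM or more, the correlation of log2(FPKM + 1) across genes was 0.984 for Controls 1 and 2, 0.970 for Controls 1 and 3 and 0.969 for Controls 2 and 3. These are correlations over genes, which are not independent replicates. Genes more than 2-fold apart on that scale numbered 259, 531 and 537. The coefficient of variation (CV, SD over mean, n = 3) of protein-coding genes had a median of 9.45% between 1 and 10 FPKM, 5.67% between 10 and 100, 5.71% between 100 and 1000, and 8.04% for the 12 genes above. Counting error alone would give 6.73%, 2.83%, 1.38% and 0.637%. Differences between libraries of any origin add to counting error, which is small for abundant genes. With Controls 1 and 2 alone the medians were 6.39%, 3.57%, 2.86% and 3.54%.

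Of 5329 protein-coding genes with a mean of 10 FPKM or more, 2300 (43.2%) had a CV under 5%, 276 of 25% or more and 10 of 50% or more. The steadiest were Scmh1, a Polycomb protein, with a CV of 0.200% at 22.04, 21.97 and 21.96 FPKM, and Pcf11, a factor of transcription termination, with 0.211%. Phf13, Rnf114 and Parp1, the poly(ADP-ribose) polymerase, followed with CVs of 0.227%, 0.228% and 0.229%. These are the lowest of 5329 values from 3 libraries each, and they lie below the counting error, so they do not show that such genes vary least.

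Among the 10 most variable genes, several share sequence with copies. Rpl34, a ribosomal protein gene, was at 43.2, 44.2 and 0.916 FPKM and had the largest deviation of any gene named here. Gm11361 was at 8.40, 6.15 and 39.0 FPKM, Rpl35a at 15.8, 14.3 and 2.37 FPKM and Eno1b at 31.8, 53.0 and 10.2 FPKM. Sumo2, a ubiquitin-like modifier, was high in Control 2, at 4.87, 22.7 and 4.56 FPKM, and Atp6ap1l was low in Control 1, at 3.55, 45.1 and 49.4 FPKM. Aldh1l1, a folate enzyme, was at 18.6, 19.3 and 3.75 FPKM, Car2, a carbonic anhydrase, at 45.3, 44.8 and 14.5 FPKM, and 1700001F09Rik at 28.3, 23.2 and 4.07 FPKM. Most of these extremes were therefore set by Control 3, on either side.

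Genes that left the other 2 libraries by 1.5-fold or more were mostly low in Control 3. Of the 5329 genes, 254 (4.77%) were lower in Control 3 than in both others by 1.5-fold, and 12 (0.225%) were higher. The corresponding counts were 5 lower and 2 higher for Control 1, and 7 and 6 for Control 2. With the libraries scaled to the same summed FPKM, 164 genes were lower in Control 3. The 254 genes held 10.3%, 10.3% and 5.75% of the summed FPKM, and they included 6 of the 25 and 15 of the 100 most abundant protein-coding genes. Of the 103 X-linked genes among the 5329, 17 were in the set.

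By list, 14 of the 23 elongating spermatid genes were in that set of 254, against a background of 4.77%. The lists were chosen with earlier results of these data known, and 22 of these 23 genes had a mean of 100 FPKM or more. The background covers all protein-coding genes at 10 FPKM or more, so such shares are a description and not a test. The set also held 2 of 19 round spermatid genes at 10 FPKM or more, H1fnt and Tssk6, and 2 of 6 Leydig genes. It held 1 of 18 early prophase genes, Syce2, 1 of 13 division genes, Kif2c, and 0 of 17 pachytene and 0 of 9 Sertoli genes. Deviations of Control 3 from the mean of the other libraries were taken on the log2(FPKM + 1) scale. The median deviation was -0.82 for elongating spermatid genes, -0.79 for Leydig genes and -0.55 for the 6 erythroid genes. Over all 5329 genes it was -0.03. The erythroid list departed most in Control 1, with a median deviation of 0.67 there and sums of 49.0, 28.9 and 28.4 FPKM. Without Control 1 its deviation in Control 3 was -0.22. Control 3 was the lowest library for 22 of 23 elongating spermatid genes, against 46.6% of the 5329. Without Control 3, the elongating spermatid level was 8.50, still the highest of the 7 germ cell lists. The median deviation was 0.32 for stromal genes, 0.24 for epididymal genes, -0.18 for immune genes and -0.07 for endothelial genes, and it lay within 0.11 of 0 for the other 6 germ cell lists and for Sertoli genes. With the libraries scaled to the same summed FPKM, those 6 germ cell lists and the Sertoli list were all above 0, from 0.11 for division genes to 0.21 for early prophase genes. Elongating spermatid genes were then at -0.68 and Leydig genes at -0.67. That scaling moved log2 FPKM of every gene with a read by 0.093 in Control 3, -0.054 in Control 1 and -0.034 in Control 2. A rise after scaling is therefore not particular to these lists. In the RefSeq promoter windows, TGANNTCA was found for 59 of 198 genes of the set (29.8%). Over all protein-coding genes at 10 FPKM or more it was found for 618 of 4219 (14.6%). The 59 include elongating spermatid genes, among them Prm1 and Tnp1, whose sequences had been seen when the motif was chosen. The full palindrome was found for 10 of the 198 (5.05%), near the 164 of 4219 (3.89%).

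**Figure D5:**
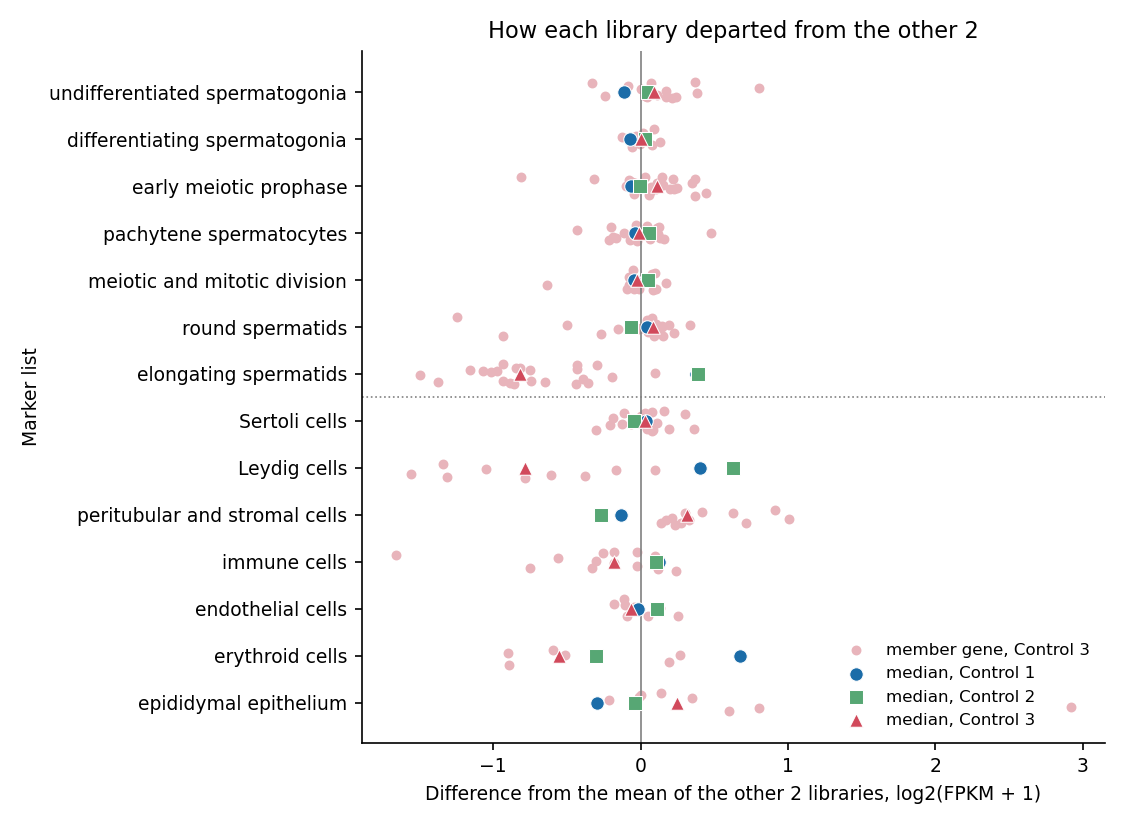
Difference of a library from the mean of the other 2, log2(FPKM + 1), for 7 germ cell lists (above the dotted line) and 7 lists of other cell types (below it). Coloured symbols are medians over a list for each library and pale points are the member genes in Control 3, scattered vertically for legibility. Elongating spermatid and Leydig medians of Control 3 lie near -0.8 and the stromal median at 0.32. The erythroid median of Control 3 lies at -0.55, and that of Control 1 further from 0, at 0.67.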

How the data were processed

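Gene levels came from 1 table of FPKM that the authors deposited for all 9 libraries, with gene length in bases, biotype and position in other columns. Total RNA was taken with a column kit and made into libraries with a SMARTER mRNA-Seq kit, per the labels' protocols. The build was GRCm38 (mm10), per the submitters' processing notes. The aligner, the counting program and the use of strand are not given in the sources used here. Values times gene length fell on whole multiples of 1 read for 100% of values (tolerance 0.01 read), so reads per gene were recovered. The authors' denominator was 0.919 ± 0.028 (SD, n = 3) of those reads, and its share was largest in Control 3 (0.951). Only the control columns were used, and there was no test, since there is 1 group. Levels of lists are medians of log2(FPKM + 1). The 14 marker lists (204 genes) and 25 pairs were chosen with earlier results of these data known.

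The genes named were the 25 highest protein-coding genes, the 10 highest long noncoding genes and 3 highest of other biotypes, per list the 4 highest members and any under 1 FPKM in all 3, the pairs, Clpp and Clpx, and the extremes of CV and of deviation. Further list members, CT010467.1, Gm24270, the Y-linked genes and Crem were named after their values were seen. Sequences and annotation came from RefSeq (GRCm38.p6) and GENCODE M21. Python 3.11.15, pandas 2.3.3 and numpy 2.4.6 were used, and the calculations were tested on simulated data.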

Additional observations from a re-analysis of the deposited data

How the results depend on the processing

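Counting reads in place of FPKM lowered the share of the 100 most abundant genes to 12.9%, the X share to 1.17% and the mitochondrial share to 0.896%, and raised the protein-coding share to 96.1%. Protein-coding genes were 60.0% of genes at 0.1 FPKM or more, 84.1% at 5 or more and 58.2% of all with a read. The ratio of X to autosomal medians was 0.565 with no filter and 0.606 at 5 FPKM or more. With a pseudocount of 0.1 the Sertoli level was 3.31 on the log2 scale. The SD over genes of the deviation of Control 3 was 0.38, became 0.59 with a pseudocount of 0.1 and 0.27 with no filter. Genes lower in Control 3 numbered 164 with equal summed FPKM and 1403 with no filter. Equal summed FPKM moved log2 FPKM of every gene with a read by 0.093 in Control 3, -0.054 in Control 1 and -0.034 in Control 2. With that scaling the deviations of Control 3 near 0 changed sign for division genes (0.11), endothelial genes (0.018) and pachytene genes (-0.0080 to 0.12). Without Control 1 or Control 2 they ranged from -0.030 to 0.043, from -0.14 to 0.00426 and from -0.060 to 0.039, and that of Sertoli genes turned from 0.032 to -0.023 without Control 2. The deviation of elongating spermatid genes stayed between -0.82 and -0.68 in all alternatives run. No paired analysis was possible because there is 1 group. Depth limits genes of few reads, such as Nanos2.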

Other observations

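Transcription factors and reads shared with pseudogenes were looked at after the values above were known, and no explanation is offered for either. Of 1469 genes that the table assigns to a transcription factor family, 789 had a mean of 1 FPKM or more, 188 of 10 or more and 10 of 100 or more. The 3 highest were Y-box proteins, which bind DNA and mRNA: Ybx2, then Ybx3 at 647, 680 and 620 FPKM and Ybx1 at 569, 578 and 540 FPKM. Dmrtb1 followed, and then Hmgb4, a testis HMG-box protein, at 321, 348 and 217 FPKM, lowest in Control 3. Creb3l4, a bZIP factor of the endoplasmic reticulum membrane, was at 147, 137 and 126 FPKM, and Tcfl5, a basic helix-loop-helix factor of the testis, at 125, 131 and 116 FPKM. Rnf138, a ubiquitin ligase, was at 116, 114 and 72.2 FPKM.

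The division of reads between some genes and their processed pseudogenes differed from library to library. Rpl34 had 1636, 1785 and 33 reads in Controls 1, 2 and 3, while its 2 annotated pseudogenes had 70, 80 and 1449. Their sum was 1706, 1865 and 1482 reads, which is 108, 110 and 103 RPM of gene reads. The pseudogene share was therefore 4.10%, 4.29% and 97.8%, whereas the sum in RPM was nearly level. Atp6v0c, a subunit of the vacuolar proton pump, had a pseudogene share of 1.03%, 1.84% and 57.3%, and the ribosomal gene Rps2 one of 5.999%, 6.60% and 44.1%. For Rpl35a the share was 1.48%, 0.647% and 31.7%, and its sum also differed, at 809, 773 and 167 reads. Such differences were few: of 245 parent genes with at least 100 reads in each library, counted with their pseudogenes, the share ranged over 20 points or more for 6 and over 5 points or less for 217. Single values of ribosomal protein genes in these libraries carry that uncertainty.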
